A study of Mus musculus with 8 samples.

Results

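The genes described here are 9 components and receptors of the complement system, C1qa, C1qb, C1qc, C4b, C3, Cfb, C3ar1, C5ar1 and Itgam. They were taken by symbol, with no threshold on level, from the 27998 genes counted in single microglia of the mouse lumbar spinal cord. The choice was made with earlier results of these data known. All 9 were found, under 10 gene identifiers, because the symbol Itgam stood at 2 of them. The data were 8 libraries of YFP-sorted cells from young adult C57BL/6 mice, 1 library for each of 8 groups. The 4 control groups carried Cx3cr1-yfp-creER/+, with YFP and a tamoxifen-inducible Cre at the Cx3cr1 locus, and the 4 A20 cKO groups carried Cx3cr1-yfp-creER/+; Tnfaip3 fl/fl, with floxed alleles of the gene for the NF-kB inhibitor A20. In each genotype 1 library was naive and the others were taken 1, 2 and 3 days after bilateral transection of the sciatic nerve. The cords of 3 animals were pooled per group and tamoxifen was injected for recombination, per the study's methods. The Cre can act in every cell that expresses Cx3cr1, other macrophages included, and the controls carried the same modified Cx3cr1 allele as the A20 cKO animals.

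Complement is a cascade of proteins that tags targets for engulfment and calls in phagocytes. In the classical pathway C1q, built from the products of C1qa, C1qb and C1qc, binds a target and leads through C4 to the cleavage of C3. Factor B, the product of Cfb, forms the C3-cleaving enzyme of the alternative pathway. The small fragments C3a and C5a act on the receptors encoded by C3ar1 and C5ar1, and the larger C3 fragments are bound by complement receptor 3, whose alpha chain CD11b is encoded by Itgam. Microglia are the main makers of C1q in the central nervous system, and C1q and C3 mark synapses for removal by microglia during development.

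The C1q genes lay side by side on chromosome 4 within 18.7 kb (GRCm38, GENCODE M21), C1qb at 136880129 to 136886187, C1qc at 136889804 to 136893065 and C1qa at 136895917 to 136898803, all on the minus strand. Chromosome 17 held C4b at 34728380 to 34743882, Cfb at 34856374 to 34862518 and, 22.3 Mb further, C3 at 57203970 to 57228136. C3ar1 was on chromosome 6 (122847138 to 122856161), C5ar1 on chromosome 7 (16246743 to 16259540) and Itgam on chromosome 7 (128062640 to 128118491). The second identifier under the symbol Itgam overlapped the first and is named Gm49368 in the annotation. It held between 0.975% and 3.20% of the symbol's UMIs, and both were summed. C4b has a near-identical neighbour, C4a, whose symbol was not among the counted genes, and reads of the pair may not have been separated. Cfb lies 85 bases from C2.

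Promoter sequences of 6 of the 9 members were matched in RefSeq (GRCm38.p6), C1qa, C4b and Cfb being the others. The 250 bases upstream of the start are shown for the gene that was nearly absent from the control libraries, C3, and for a pair well detected in every library, C1qb and Itgam. Capitals mark TTGCNNAA in C3, a pattern like that bound by C/EBP factors, and GAGGAA in C1qb and Itgam, the core bound by ETS factors such as PU.1, both searched on both strands. The windows are chr17:57228137-57228386 (minus strand), chr4:136886201-136886450 (minus strand) and chr7:128062390-128062639 (plus strand), each printed along its gene's strand.
C3: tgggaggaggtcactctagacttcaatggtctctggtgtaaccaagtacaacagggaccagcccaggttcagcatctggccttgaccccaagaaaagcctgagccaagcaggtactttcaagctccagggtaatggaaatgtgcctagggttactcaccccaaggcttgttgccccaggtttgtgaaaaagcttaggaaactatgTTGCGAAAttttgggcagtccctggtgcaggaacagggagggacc
C1qb: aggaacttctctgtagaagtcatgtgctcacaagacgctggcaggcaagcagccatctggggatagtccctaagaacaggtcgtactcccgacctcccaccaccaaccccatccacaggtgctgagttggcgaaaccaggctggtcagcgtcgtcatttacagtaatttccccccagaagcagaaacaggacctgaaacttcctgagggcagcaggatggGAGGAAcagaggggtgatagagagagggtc
Itgam: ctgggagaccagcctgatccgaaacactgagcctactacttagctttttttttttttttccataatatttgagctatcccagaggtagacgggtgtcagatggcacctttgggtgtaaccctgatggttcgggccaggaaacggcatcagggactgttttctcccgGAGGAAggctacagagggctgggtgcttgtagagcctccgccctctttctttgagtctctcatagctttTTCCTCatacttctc
The C3 window held TTGCGAAA, beginning 45 bases before the start. C1qb held GAGGAA on its own strand, beginning 30 bases before the start, and Itgam held it once on each strand, 84 and 15 bases before the start. Of 32841 RefSeq promoter windows of the same length, 9.57% held TTGCNNAA and 23.3% held GAGGAA on either strand, so each match is common. The search also covered TTCNNNGAA (7.02% of windows), GAAANNGAA (7.13%) and an NF-kB pattern (7.25%). None of these 3 was matched in the C3, C1qb or Itgam window. In the windows not shown, C1qc held GAGGAA on the opposite strand, beginning 193 bases before the start. It also held the NF-kB pattern as GGGGCTCTCC, 41 bases before the start. C5ar1 held GAAAAGGAA on the opposite strand, 66 bases before the start. The RefSeq windows of C1qc (chr4:136892915-136893164) and C5ar1 (chr7:16259339-16259588) partly overlapped the GENCODE bounds given above. The C1qc NF-kB match and the C5ar1 match lay within those bounds. Neither C5ar1 nor C3ar1, also detected in every library, held GAGGAA. The patterns were picked with the levels known, and a match describes letters only.

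After filtering, 14626 of 14883 barcodes were kept, between 558 and 3585 per library, with a median of 2780 to 4274 UMIs per cell and 1620481 to 15817426 UMIs per library in the kept cells. Levels are UMI sums over kept cells per 1000000 UMIs of the library (CPM). Each group was 1 pool of animals, so no group had replicates and no test between groups was run, and the ranges after values are 95% intervals (Poisson for CPM, Clopper-Pearson for shares, exact conditional for ratios) that cover counting error only. For a share of 0, the limit given is instead that of 3 counts in the cells examined. A gene is called past 2-fold in a comparison where it had at least 100 UMIs in both libraries together and its CPM differed at least 2-fold. The libraries fell into 2 sets. One, termed the linked set, held every A20 cKO library together with control day 3, and its libraries shared a median of 13.7 cell barcodes per 1000000 possible pairs of barcodes, against 1.94 between the sets and 1.59 among control naive, day 1 and day 2. It also carried RNA of other cells. Ttr, the transthyretin gene of the choroid plexus, was at 126 to 397 CPM there and at 0 in the other 3 control libraries, Mbp of myelin at 79.9 to 134 against 14.7 to 24.7 CPM, and S100a8 of neutrophils at 10.2 to 17.5 CPM against 0. Of the 10 microglia markers checked all were detected in every library, with a summed level between 13132 CPM (A20 cKO day 2) and 28351 CPM (control naive). Tnfaip3 was not lower in the A20 cKO libraries (42.3 to 67.7 CPM) than in the controls (6.83 to 25.3 CPM). Reads at the 3′ end of a transcript need not cover the floxed part, so this does not check the deletion.

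C1q was among the most abundant RNA of these cells in every library, and its levels differed little between libraries. C1qa was at 12269.8 CPM in control naive, 14476 at day 1, 15495.5 at day 2 and 10253 at day 3, and at 10714, 10449, 11718 and 12392 CPM in A20 cKO naive, day 1, day 2 and day 3. C1qb was at 10543, 11555, 13625 and 9386 CPM in the controls and at 8320.01, 8866, 9516 and 9232 CPM in A20 cKO, in the same order. C1qc was at 9050.4, 8382, 9710.24 and 8402 CPM in the controls and at 7562, 7299.85, 7973 and 7910.25 CPM in A20 cKO. The highest library of each subunit was control day 2, at 1.51 times the lowest for C1qa, 1.64 times for C1qb and 1.33 times for C1qc. Counting error was smaller than these differences (the interval of the highest C1qa value was 15434 to 15557 CPM), but differences of this size between single pools have no replicate check.

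Together the 3 subunits made up 3.19%, 3.44%, 3.88% and 2.80% of all UMIs in control naive to day 3 and 2.66%, 2.66%, 2.92% and 2.95% in A20 cKO naive to day 3. Their proportions were steady: C1qa gave 36.6% to 42.1% of C1q UMIs, C1qb 31.3% to 35.1% and C1qc 24.4% to 30.0%. C1qc was the only member whose 4 A20 cKO levels all lay below the 4 control levels, which 4.58% of the 11046 genes with at least 100 UMIs in all did. After thinning every cell to 2000 UMIs, at least 99.8% of the cells of each library had a UMI of each subunit, and cells differed in how many. The median cell held 20 C1qa UMIs in control day 3 and 31 in control day 2, and the variance of C1qa over cells was 1.34 times its mean in control day 1 and 3.54 times in A20 cKO day 2. Within libraries the subunits' counts correlated across cells at Pearson r of 0.21 to 0.54. Cells of a library share its depth and its free RNA. In the 45 kept barcodes with more UMIs of other cell types' markers than of microglia markers, all in the linked set, 73.3% had a C1qa UMI at a median depth of 1367 UMIs and the level was 1082 CPM. The part of free RNA in the C1q of single cells was not tested.

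**Figure D1:**
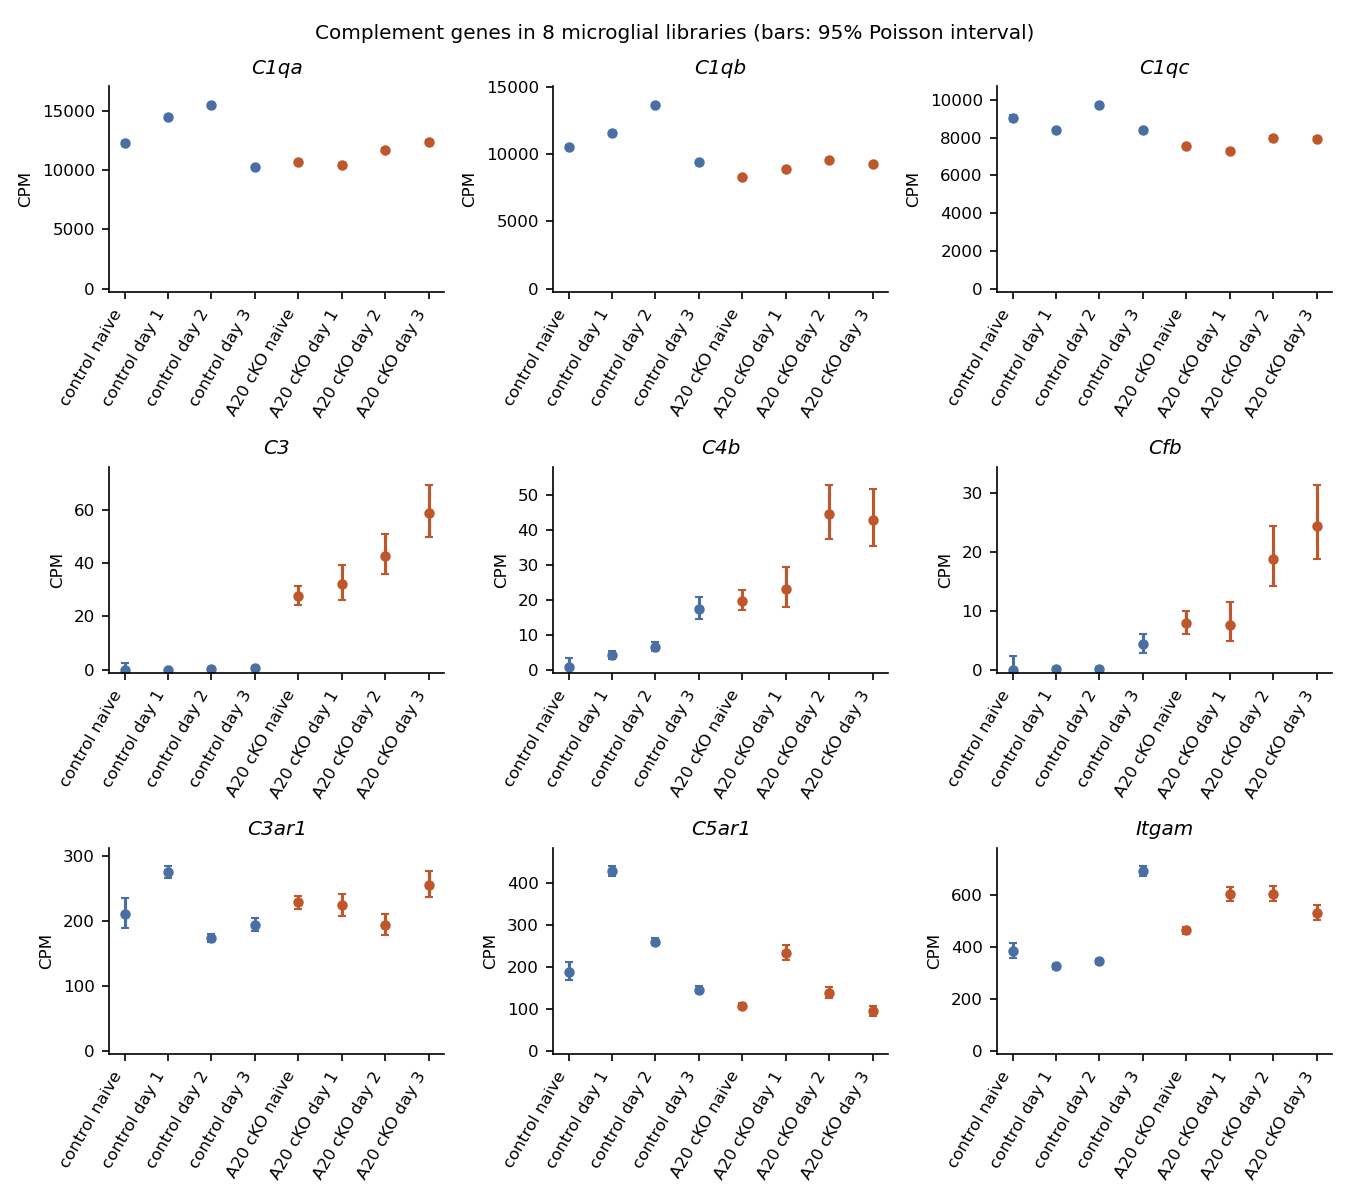
CPM (vertical axis) of the 9 members in the 8 libraries (horizontal axis; blue, control; orange, A20 cKO), with points for the UMI sum over kept cells and bars for the 95% Poisson interval. C3 lies at or below 0.412 CPM in the controls and between 27.6 and 59.0 CPM in A20 cKO, while C5ar1 is highest at day 1 in each genotype.

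C3, the protein on which all complement pathways meet, was nearly absent from the controls and present in every A20 cKO library. It had 0 UMIs in control naive and control day 1, 4 in control day 2 and 3 in control day 3. In A20 cKO it had 246, 98, 130 and 150 UMIs from naive to day 3, or 27.6 (24.2 to 31.2), 32.4 (26.3 to 39.4), 42.8 (35.8 to 50.9) and 59.0 (50.0 to 69.3) CPM. No control library reached an A20 cKO library. Against control naive, with its 0 UMIs set to a floor of 3 counts, C3 in A20 cKO naive was 14.9-fold higher. That value leaves out counting error and is not a lower limit, since the exact interval of the ratio began below it. Against control day 3, the control library of the linked set, the ratio was 67.0 (22.7 to 327) for A20 cKO naive and 143 (48.1 to 703) for A20 cKO day 3.

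All 3 C3 UMIs of control day 3 were in barcodes led by ependymal and choroid markers. Of the 45 barcodes with other cells' markers, 22 were led by that list and 7 of these held C3 (31.8%, 13.9% to 54.9%; 12 UMIs), while none of the 23 led by other lists did (0 of 23, which allows up to 13.04%). The 7 came from 3 barcode sequences, of which 1 recurred in 4 libraries and another in 2. Without these 45 barcodes C3 was at 0 in control day 3 and at 27.0, 32.2, 42.3 and 58.8 CPM in A20 cKO naive to day 3. Without every barcode that occurred in more than 1 library it was at 0 in control day 3 and at 27.3, 28.3, 41.9 and 58.9 CPM in A20 cKO. Ttr was at 219 CPM in control day 3 and at 126 CPM in A20 cKO naive.

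C3 was detected in a minority of A20 cKO cells. In cells thinned to 2000 UMIs, 4.52% (3.75% to 5.39%) of A20 cKO naive cells had a C3 UMI, 3.86% (2.65% to 5.40%) at day 1, 6.07% (4.33% to 8.24%) at day 2 and 13.2% (10.5% to 16.4%) at day 3. Without thinning the shares were 7.36%, 9.03%, 15.4% and 19.2%. In the controls the thinned shares were 0 of 502 naive cells, which allows up to 0.598%, 0 of 3225 day 1 cells, which allows up to 0.093%, 1 of 3480 day 2 cells and 1 of 1878 day 3 cells. Between 0.241% and 1.49% of A20 cKO cells had 2 or more C3 UMIs at this depth. Within A20 cKO, the day 3 level was 2.14 times the naive level (1.73 to 2.63) and the day 2 level 1.55 times (1.25 to 1.93), while day 1 and naive did not differ beyond counting error (1.17, 0.919 to 1.49). Neighbouring days in the order overlapped in their intervals. Ttr was also lower in A20 cKO naive (126 CPM) than at day 1, 2 and 3 (387 to 397 CPM), and P2ry12, a homeostatic microglial gene, was at 2755 CPM in naive and at 1414, 908 and 845 CPM at day 1, 2 and 3. The part of cell composition in the C3, C4b and Cfb time courses was not tested, and without the 45 barcodes with other cells' markers the C3 levels stood as given above.

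**Figure D2:**
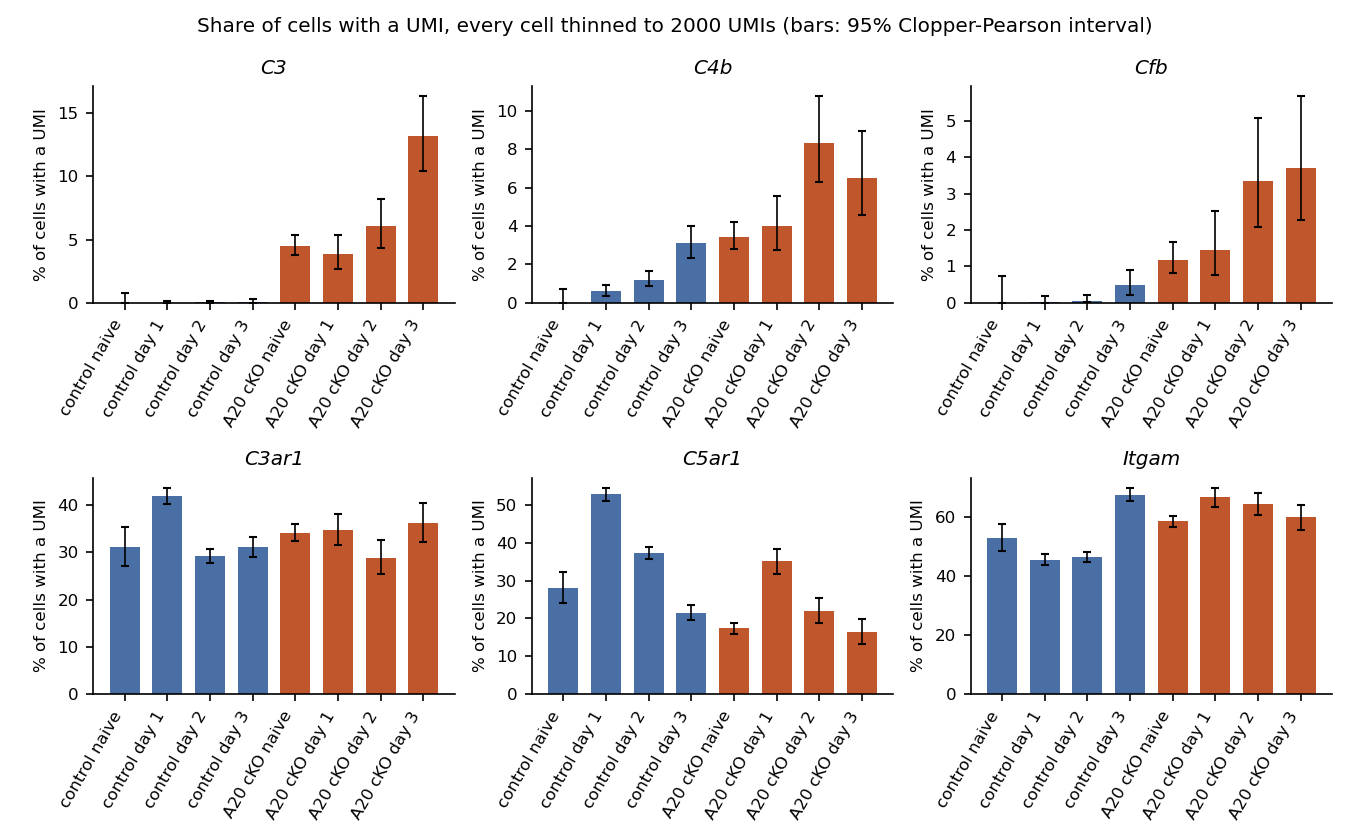
Percent of cells with at least 1 UMI of 6 members (vertical axis) in the 8 libraries (horizontal axis), every cell thinned to 2000 UMIs, with 95% Clopper-Pearson intervals. C3 was found in 3.86% to 13.2% of A20 cKO cells and in at most 1 cell of each control library, whereas Itgam was found in 45.7% to 67.7% of the cells of each library.

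C4b, the source of the C4 that is cleaved upstream of C3, and Cfb were also low in the controls and higher in A20 cKO, but both were higher at control day 3 than in the other controls. C4b had 1, 58, 104 and 127 UMIs in control naive to day 3, or 0.617, 4.13, 6.58 and 17.4 CPM, and 19.7, 23.1, 44.5 and 42.9 CPM in A20 cKO naive to day 3. Its control day 3 (14.5 to 20.7) and A20 cKO naive (16.9 to 22.9) intervals overlapped, and their ratio was 1.13 (0.896 to 1.43). Cfb had 0, 1, 2 and 31 UMIs in the controls, 4.25 CPM at day 3, and was at 7.85, 7.59, 18.8 and 24.4 CPM in A20 cKO. C3, C4b and Cfb were the 3 members whose 4 A20 cKO levels all lay above the 4 control levels, as did 5.1% of all genes with at least 100 UMIs. Against control day 3 alone, 5 members lay below all 4 A20 cKO libraries (C1qa, C3, C4b, C3ar1 and Cfb), as did 14.2% of all genes, and C1qc and Itgam lay above all 4, as did 22.2%. For C3ar1 this rested on 194.463 CPM in control day 3 against 194.471 CPM in A20 cKO day 2, which do not differ beyond counting error. The Cfb intervals of control day 3 (2.89 to 6.04) and A20 cKO day 1 (4.81 to 11.4) also overlapped. Libraries of different days are not replicates.

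In A20 cKO both C4b and Cfb were higher at day 2 and day 3 than in naive. C4b was 2.25 times its naive level at day 2 (1.79 to 2.84) and 2.17 times at day 3 (1.70 to 2.78), and Cfb was 2.39 times (1.66 to 3.45) and 3.11 times (2.17 to 4.44). At day 3 the A20 cKO library exceeded the control library 2.46-fold in C4b (1.89 to 3.20) and 5.73-fold in Cfb (3.67 to 9.13), the latter on 93 UMIs in all and therefore not counted as past 2-fold. Cfb in control day 3 depended on the cells included: it was at 2.24 CPM (12 UMIs) without cycling cells and at 2.61 CPM (17 UMIs) without the 5% of barcodes with most UMIs, which gave ratios of 10.4 (5.37 to 21.6) and 9.73 (5.59 to 17.8). In the controls, C4b against the single UMI of control naive gave ratios of 6.69 (1.15 to 269) at day 1, 10.7 (1.87 to 425) at day 2 and 28.2 (4.98 to 1124) at day 3. Between the better counted control libraries the order from lowest to highest was day 1, day 2 and day 3, with no overlap of intervals. Control day 3 was of the linked set and the others were not, so day and set cannot be told apart. At 2000 UMIs a cell, C4b was found in 0% (0 of 502), 0.589%, 1.21% and 3.09% of control cells and in 3.45%, 3.98%, 8.31% and 6.51% of A20 cKO cells, and Cfb in at most 0.479% of control cells and in 1.19%, 1.45%, 3.35% and 3.72% of A20 cKO cells. In the 45 barcodes with other cells' markers each had 1 UMI (2.22%, 0.0562% to 11.8%, at a median depth of 1367 UMIs), and this share does not separate the lower of these values from free RNA.

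C5ar1, the receptor of C5a, was highest 1 day after injury in each genotype. It was at 188, 429, 260 and 145 CPM in control naive to day 3 and at 107, 234, 138 and 94.4 CPM in A20 cKO naive to day 3. Day 1 was 2.28 times the naive level in the controls (2.03 to 2.56) and 2.19 times in A20 cKO (1.99 to 2.42), and these comparisons shared no library. At day 2 the ratios were 1.38 (1.23 to 1.56) and 1.30 (1.15 to 1.45). At day 3 the control library was below its naive library (0.771, 0.679 to 0.879), and the A20 cKO library did not differ from its naive library beyond counting error (0.884, 0.764 to 1.02). The thinned share of cells with C5ar1 was 28.1% in control naive and 52.8% at day 1, and 17.4% and 35.1% in A20 cKO. At each time point the A20 cKO library was below the control library, by a ratio of 0.568 in naive animals (0.498 to 0.648) and 0.650 at day 3 (0.563 to 0.749), the latter alone within the linked set.

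C3ar1, the receptor of C3a, kept within a narrow range. It was at 212, 276, 174 and 194 CPM in the controls and at 229, 225, 194 and 257 CPM in A20 cKO, in the order naive to day 3. In the order of the 8 libraries from control day 1 to control day 2, only the step between control day 3 and control day 2 exceeded counting error. A20 cKO day 3 was 1.32 times control day 3 (1.20 to 1.45).

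Itgam was at 384, 324.5, 343 and 689 CPM in the controls and at 462, 602, 604 and 530.4 CPM in A20 cKO. Control day 3 was the highest of all libraries and control day 1 the lowest, a 2.12-fold range. In the controls day 1 and day 2 were below naive (0.844, 0.776 to 0.919, and 0.893, 0.822 to 0.972), whereas day 3 was 1.79 times naive (1.65 to 1.95), again across the sets. In A20 cKO all 3 injured libraries were above naive, 1.30 times at day 1 (1.23 to 1.38), 1.31 times at day 2 (1.24 to 1.38) and 1.15 times at day 3 (1.08 to 1.22). Itgb2, the beta chain with which CD11b pairs, ranged from 202 to 307 CPM and was past 2-fold in none of the 9 comparisons.

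**Figure D3:**
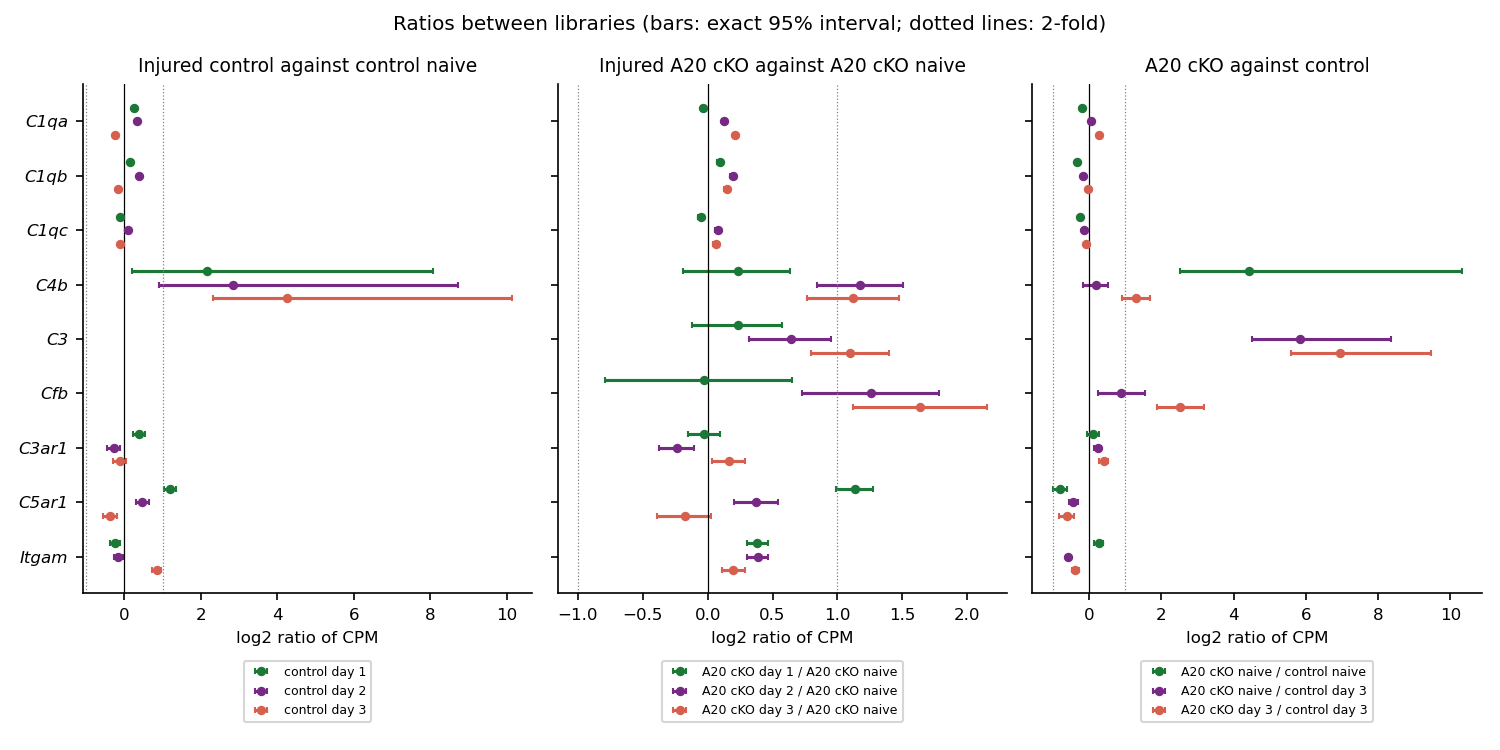
Log2 ratios of CPM (horizontal axis) for the 9 members in 9 comparisons of libraries, with 0.5 UMIs added to both sums and exact 95% intervals; dotted lines mark 2-fold, the panels differ in scale, and members with 0 UMIs in a library are left out of that comparison. The C1q genes lie between -0.34 and 0.37 in all panels, while C4b, C3 and Cfb extend past the right-hand line.

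Read against all genes, the members past 2-fold were few, and all of them were higher. In the controls against naive, 1 of 6 members with enough UMIs was higher at day 1 (C5ar1; 4.14% of all genes were), 1 of 7 at day 2 (C4b; 6.21%) and 1 of 7 at day 3 (C4b; 9.24%). None was lower, against 7.06%, 5.99% and 2.29% of all genes. In A20 cKO against naive, 1 of 8 was higher at day 1 (C5ar1; 1.56%), 2 of 9 at day 2 (C4b and Cfb; 2.84%) and 3 of 9 at day 3 (C3, C4b and Cfb; 1.91%), and none was lower, against 1.47%, 2.8% and 2.16%. Between genotypes, C3 and C4b were higher in A20 cKO naive than in control naive (2 of 8; 8.02%), C3 than in control day 3 (1 of 9; 0.996%), and C3 and C4b in A20 cKO day 3 than in control day 3 (2 of 8; 1.86%). None was lower, against 2.15%, 1.5% and 2.53%. Comparisons with the same naive or day 3 library share it, and the members were chosen with earlier results of these data known. The median log2 ratio of the members with enough UMIs was 0.19, 0.34 and -0.12 in the controls at day 1, 2 and 3 against naive, beside -0.13, -0.12 and 0.07 for all genes. In A20 cKO at day 1, 2 and 3 it was 0.16, 0.37 and 0.20, beside 0.04, -0.07 and -0.10. It was -0.04 in A20 cKO naive against control naive (all genes 0.04), 0.06 against control day 3 (-0.01), and 0.12 in A20 cKO day 3 against control day 3 (-0.12).

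Most other genes of the pathway were low or not detected. Of 42 further complement genes counted, 17 had no UMI in any kept cell, among them the terminal components C6, C7, C8a, C8b, C9 and Hc (which encodes C5), the lectins Mbl1 and Mbl2, and the C1 proteases C1s1 and C1s2, and 13 had fewer than 100 UMIs in all. The C1r protease gene C1ra was at most at 4.28 CPM, and C2, the partner of C4 in the classical C3-cleaving enzyme, was at most at 3.93 CPM. Among the most abundant were Calr, which encodes calreticulin, a surface ligand of C1q, Itgb2, Lrp1, a receptor for calreticulin-tagged targets, and the membrane regulator Cr1l.

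Of the 7 to 9 further genes with at least 100 UMIs in a comparison, few were past 2-fold. Itgax, the alpha chain CD11c of complement receptor 4, lies 11.1 kb from Itgam and did not share its pattern: it was at 6.17, 1.56, 2.97 and 3.98 CPM in the controls and at 21.9, 23.4, 49.1 and 60.6 CPM in A20 cKO. Its log2 ratio was 3.91 (3.35 to 4.55) in A20 cKO day 3 against control day 3, and it was also past 2-fold in A20 cKO naive over each of control naive and control day 3, and at A20 cKO day 2 and 3 over naive. C5ar2, the second C5a receptor, was at 61.1 CPM in control naive and 16.9 in A20 cKO naive (log2 -1.85, -2.23 to -1.47) and was lower in A20 cKO day 3 than in control day 3 (log2 -1.06, -1.61 to -0.58). Lrp1 was at 326 CPM in control day 3 and 148 CPM in A20 cKO day 3 (log2 -1.14, -1.30 to -0.98). Calr was the only one past 2-fold in the injured controls, at 339 CPM in naive and 713 at day 1 (log2 1.07, 0.95 to 1.20).

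Cells with and without a C3 UMI were then set side by side within each A20 cKO library, at 2000 UMIs a cell, a comparison added after the levels were known. There were 118 C3 cells in A20 cKO naive, 32 at day 1, 38 at day 2 and 71 at day 3. C1qa was slightly higher in C3 cells in all 4 libraries, with log2 ratios of 0.17 (0.11 to 0.22), 0.29 (0.19 to 0.39), 0.15 (0.05 to 0.24) and 0.12 (0.05 to 0.19). Its variance over all cells of these libraries was 2.41, 2.61, 3.54 and 3.06 times its mean. The intervals do not cover that spread between cells and are therefore too narrow, so differences this small are uncertain. Of the other C1q subunits, the interval of C1qb included 0 in 3 of the 4 libraries and that of C1qc in all 4, with log2 ratios of 0.01 to 0.16 and -0.01 to 0.11. C4b was found in 5.08% of C3 cells and 3.37% of the others in naive, and in 15.6% and 3.51% at day 1, 21.1% and 7.48% at day 2 and 11.3% and 5.78% at day 3. Its log2 ratio passed counting error at day 1 (2.57, 1.07 to 3.70, on 7 UMIs in C3 cells) and day 2 (1.54, 0.27 to 2.52, on 9 UMIs in C3 cells). At day 2 the intervals of the shares overlapped (9.55% to 37.3% in C3 cells and 5.49% to 9.92% in the others). Cfb was found in 5.08% of C3 cells and 1.00% of the others in naive (log2 2.37, 0.72 to 3.60, on 6 UMIs in C3 cells), and at day 1, 2 and 3 it had 0, 1 and 2 UMIs in C3 cells and its intervals included 0. The intervals of C3ar1, C5ar1 and Itgam included 0 in all 4 libraries. Among homeostatic microglial genes, P2ry12, a purinergic receptor, was lower in C3 cells in naive (log2 -0.94, -1.10 to -0.80), day 1 (-0.41, -0.76 to -0.09) and day 3 (-0.81, -1.18 to -0.47), and at day 2 the ratio was -0.28 (-0.70 to 0.09). Fcrls was lower in the same libraries (-1.28, -1.42 and -1.89), and its interval at day 2 included 0. The other microglia markers compared were lower in fewer libraries, Cx3cr1, Siglech and Olfml3 in 2 of 4 and Tmem119, Csf1r and Gpr34 in naive alone, and the interval of Sall1 included 0 in all 4. The share of cells with Mbp was 14.4%, 15.6%, 21.1% and 16.9% in C3 cells and 13.8%, 21.1%, 23.1% and 18.6% in the others.

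Across 680 genes with at least 100 UMIs in C3 cells, ranked by the mean log2 ratio over the 4 libraries, the highest were Cxcl10 (1.40), Ccl5 (1.14) and Cxcl13 (1.04), all chemokine genes, then Cybb (0.97), a subunit of the phagocyte NADPH oxidase, and the interferon-stimulated genes Isg15 (0.91) and Ifit2 (0.87). Klf2 (-1.06), Ltc4s (-0.70) and P2ry12 (-0.61) were the lowest. Each of these had the same sign in all 4 libraries, by which the ranking favours it, and all were named after their values were seen.

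**Figure D4:**
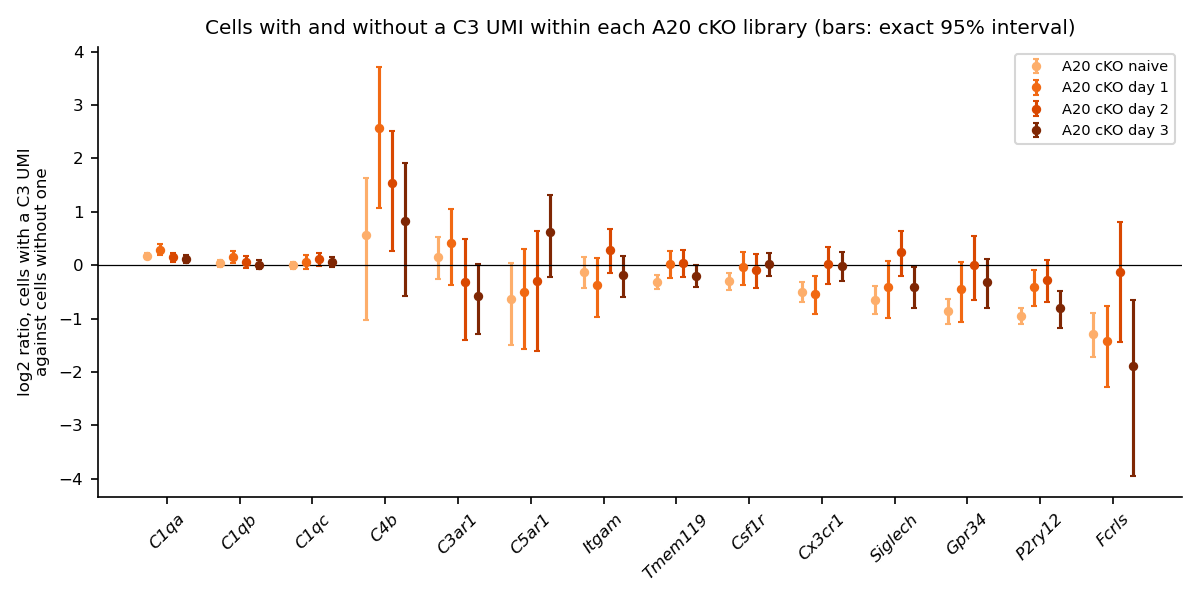
Log2 ratio of 7 members and 7 microglial genes (horizontal axis) in cells with a C3 UMI against cells without (vertical axis), within each A20 cKO library at 2000 UMIs a cell, with exact 95% intervals. C1qa lies between 0.12 and 0.29 and P2ry12 between -0.94 and -0.28.

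Dividing cells held somewhat less C1q per UMI. Cells in which 3 or more of 18 core G2/M genes were detected numbered 1121 in control day 2, 234 in control day 3 and 93, 31, 104 and 51 in A20 cKO naive to day 3, and control naive and day 1, with 1 and 8, were not compared. In all 6 libraries each C1q gene was lower in these cells than in the others, with log2 ratios of -0.40 to -0.11 for C1qa, -0.30 to -0.08 for C1qb and -0.26 to -0.10 for C1qc, and no interval reached 0. In A20 cKO day 3, for example, C1qa was at 9720.14 CPM in G2/M cells and 12798 CPM in the others (log2 -0.40, -0.45 to -0.34). As for the C3 cells, these intervals do not cover the spread of C1q between cells and are too narrow. C5ar1 was lower in control day 3 (log2 -0.53, -0.81 to -0.26) and in A20 cKO naive (-0.89, -1.53 to -0.37), day 1 (-0.83, -1.54 to -0.25) and day 3 (-0.95, -1.80 to -0.28), and its ratio was near 0 in control day 2 (0.01) and A20 cKO day 2 (0.03). C3 did not differ beyond counting error in any of the 4 A20 cKO libraries. G2/M cells held more UMIs, with medians of 4748 to 6738 against 2795 to 4149 in the others. C4b passed counting error in A20 cKO naive alone (19 UMIs in G2/M cells; log2 1.17, 0.36 to 1.82).

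**Figure D5:**
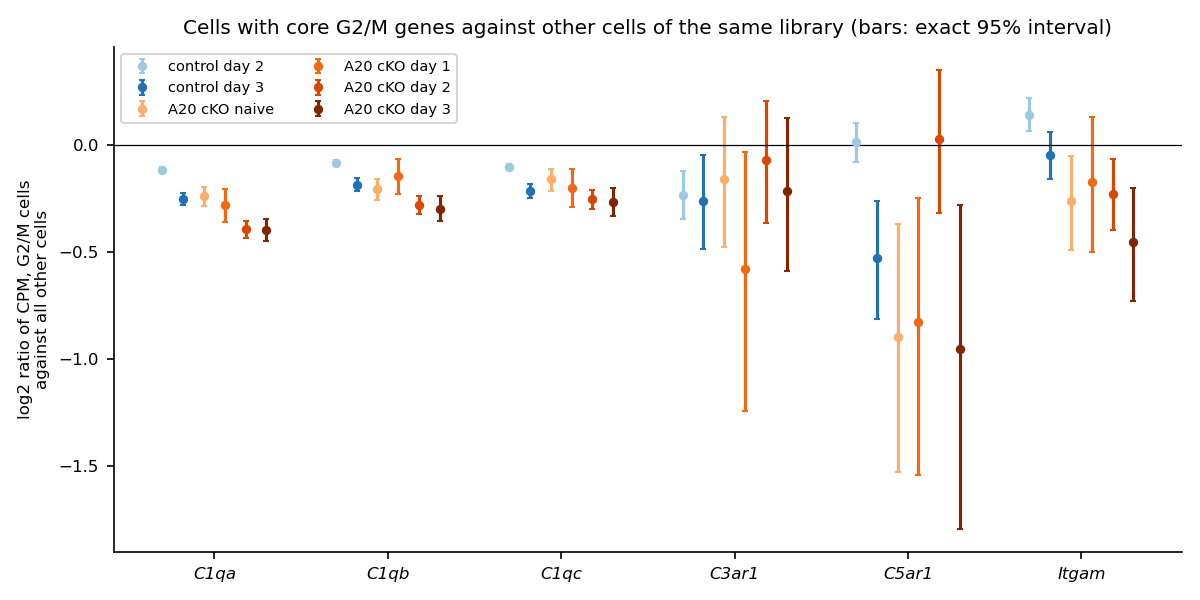
Log2 ratio of CPM (vertical axis) of 6 members (horizontal axis) in cells with core G2/M genes against the other cells of the same library, in the 6 libraries with at least 20 such cells, with exact 95% intervals. All 18 C1q points lie below 0, between -0.40 and -0.08.

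The genes whose log2(CPM + 1) followed a member most closely over the 8 libraries, among 6136 genes that averaged 20 CPM or more, are given as a description. The libraries form sets and share preparation, so a high correlation over 8 of them is easily reached. C3 was most like Vcam1 (r = 0.997), an adhesion molecule gene, the MHC class I gene H2-Q6 (0.994) and Ly6i (0.992). C4b was most like Slc2a6 (0.983), Ms4a6c (0.982) and Rad50 (0.981). C5ar1 was most like Dph3 (0.991), Cnbp (0.982) and Nifk (0.982), and C3ar1 most like Sqstm1 (0.926), Slc15a3 (0.924) and Nfkbiz (0.916). For the C1q genes the closest were Pgam1, Cyba and Fam134a for C1qa (0.961, 0.955 and 0.953), Cuedc2, Ndufb10 and Ap2s1 for C1qb (0.979, 0.978 and 0.971) and Nenf, H3f3a and Mzt2 for C1qc (0.990, 0.988 and 0.974). Itgam was most like Cdk2ap1 (0.992), Pign (0.986) and Pbrm1 (0.983), and Cfb, with a mean under 10 CPM, was not compared.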

How the data were processed

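Single-cell 3′ RNA-seq libraries (10x Genomics; labels and methods name different kit versions) of YFP-sorted lumbar microglia were analysed, 1 library for each of 8 groups. Unnormalized UMI counts for each gene in each called cell were deposited by the authors. The submitters' processing notes name Cell Ranger 2.1.1 and the build mm10. Of 27998 gene identifiers, 27645 (98.7%) matched GENCODE M21, and promoters are from RefSeq. Groups were taken from the labels, and symbols with several identifiers were summed.

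Barcodes with at least 1000 UMIs, 500 genes and at most 10% mitochondrial UMIs were kept. Doublets were excluded in the sort before the libraries were made, per the study's methods. No doublet caller was run, so barcodes that hold RNA of several cells were not identified. Levels were UMI sums as CPM. Log2 ratios had 0.5 UMIs added to both sums, and for calls a library at 0 was set to 3 counts. Shares of cells were computed after thinning each cell without replacement to 2000 UMIs, which left out 20 to 310 cells per library, and unthinned shares are also given. Groups were not tested against each other, since each was a single pooled library and its cells cannot stand for animals. Intervals are at 95% and cover counting error only.

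Named genes were the 9 members, those past 2-fold and the 5 most abundant of 43 other complement genes (42 found), the 3 genes most correlated with each member of at least 10 CPM, and cell type markers, of which some are not reported here. The members and all lists were chosen with earlier results of these data known. Alternatives were other cell filters, removal of shared, cycling, other-marker or the deepest 5% of barcodes, mean CPM per cell, scaling to the median gene, other thresholds, and other thinning. Ratios, intervals and thinning were tested on simulated data. Python 3.11.15 with numpy 2.4.6, scipy 1.17.1 and pandas 2.3.3 was used.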

Additional observations from a re-analysis of the deposited data

Results flagged for a closer look

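For 6 comparisons of a member with its naive library, the control and the A20 cKO library lay on opposite sides of 0, each beyond counting error. Relative to the median gene of each comparison the directions held, but the intervals of Itgam in the controls then included 0, at -0.12 (-0.24 to 0.01) for day 1 and -0.05 (-0.17 to 0.08) for day 2. C1qa at day 1 had a log2 ratio of 0.24 (0.22 to 0.26) in the controls and -0.036 (-0.055 to -0.018) in A20 cKO. At day 3 C1qa was at -0.26 (-0.28 to -0.24) and 0.21 (0.19 to 0.23), C1qb at -0.17 (-0.19 to -0.14) and 0.15 (0.13 to 0.17), and C1qc at -0.11 (-0.13 to -0.08) and 0.065 (0.042 to 0.088). Itgam was at -0.25 (-0.37 to -0.12) in the controls and 0.38 (0.30 to 0.46) in A20 cKO at day 1, and at -0.16 (-0.28 to -0.04) and 0.39 (0.31 to 0.47) at day 2. With 1 library a group the difference between genotypes was not tested. The control day 3 comparisons join libraries of both sets, so that day and set cannot be told apart in them. The C1q differences were all under 1.5-fold.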

How the results depend on the processing

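Each value was recomputed under the alternatives. Of 208 counts of members under an alternative, 197 stayed within 1.5 times the main count and 11 moved, and none of the members past 2-fold changed direction. Without cycling cells the number of members higher was 0 at control day 2, 0 at control day 3 and 1 at A20 cKO day 2, each against naive, and without the 5% of barcodes with most UMIs it was 0 at control day 2. These settings leave fewer UMIs: without cycling cells C4b was still 9.22 and 23.9 times naive at control day 2 and 3, and Cfb 2.58 times naive at A20 cKO day 2, each on under 100 UMIs. With at least 20 UMIs in place of 100 it was 2 at control day 1 and 2 at control day 3. At a 1.5-fold threshold 2 members were higher in control day 3 than in naive and 2 in A20 cKO naive than in control day 3, and 1 was lower in A20 cKO naive than in control naive and 1 in A20 cKO day 3 than in control day 3. With the mean of cells' CPM, 2 members were higher in A20 cKO naive than in control day 3. Of 1619 single values under an alternative, 1379 stayed within the main value's counting interval and 240 moved, most often shares of cells without thinning or at 1000 UMIs. Shares depend on depth, and levels under 1.85 CPM, or 3 counts, could be missed in the library with fewest UMIs. No paired analysis was possible because each group had 1 library and no replicate numbers to pair. A fit of genotype over the 4 time points was not run, since 3 of the 4 control libraries stood outside the set that held the A20 cKO libraries.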
